A study of Mus musculus with 36 samples.

Results

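The actin genes Acta1, Actc1, Acta2, Actb and Actg1 were followed through the cells of the injured mouse heart. They are 5 of the 20720 nuclear genes listed in the single-cell count tables. They were taken by gene symbol, in a choice made with earlier results of these data known. Cells came from the infarcted region of the left ventricle, or from the matching region in sham hearts. Per the labels the mice were male C57BL/6, aged 8 weeks, and each cell was sorted to a well of its own in multiwell plates. Sham-operated hearts filled 4 plates at day 1 and 8 plates at day 14. Hearts after ischaemia-reperfusion (IR), in which the left anterior descending artery was tied for an hour and released, filled 9 plates at day 1, then 7 at day 3 and 3 at day 14. Hearts after permanent ligation of that artery (myocardial infarction, MI) were taken at day 3 (5 plates) and had no sham plates of their own. No transgene or gene deletion was used, and all groups share strain, sex and age. The study states 3 mice per condition for sham and MI hearts at day 3, and no number for IR hearts or for sham at days 1 and 14. The labels do not tie plates to mice, so every p-value below measures the spread between plates and not between animals.

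Actin filaments are built from a single small family of near-identical proteins. In the sarcomere of the adult heart the filament is mainly cardiac alpha-actin (Actc1), and skeletal alpha-actin (Acta1) is the other sarcomeric isoform, known in rodents as part of the fetal programme that returns under load. Smooth muscle alpha-actin (Acta2) is the actin of vessel-wall cells and the customary label of the myofibroblast, while cytoplasmic beta-actin (Actb) and gamma-actin (Actg1) form the cortex and the moving edge of nearly every cell.

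All 5 genes lie on the minus strand in GRCm38, each on a chromosome of its own. Actc1 lies at chr2:114047282-114053548, Acta1 at chr8:123891769-123894751, Acta2 at chr19:34241090-34255590, Actb at chr5:142903115-142906754 and Actg1 at chr11:120345690-120348542 (GENCODE). The coding stretch holds 1131 bases in the 3 muscle isoforms and 1125 bases in Actb and Actg1, and coding identity between members ran from 81.5% (Acta2 with Actg1) to 88.6% (Actb with Actg1). The opening 60 coding bases are shown because muscle and cytoplasmic actins part at their amino end, with capitals marking each base that differs from Actc1 after alignment.
Actc1: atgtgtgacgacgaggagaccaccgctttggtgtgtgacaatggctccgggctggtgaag
Acta1: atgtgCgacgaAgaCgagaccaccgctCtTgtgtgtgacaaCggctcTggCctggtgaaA
Acta2: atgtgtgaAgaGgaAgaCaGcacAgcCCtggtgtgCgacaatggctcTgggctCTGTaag
Actb: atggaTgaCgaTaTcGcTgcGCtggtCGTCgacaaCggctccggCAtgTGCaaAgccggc
Actg1: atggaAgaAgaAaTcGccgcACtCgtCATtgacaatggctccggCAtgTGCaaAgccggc
Acta1 differed from Actc1 at 9 of these bases, Acta2 at 14, Actg1 at 17 and Actb at 19. The libraries read the 3′ end of a transcript, where the genes are far less alike. Over the last 300 transcript bases the longest run shared by any pair of members was 8 to 11 bases, against 23 to 77 bases in the coding stretch. How reads that fit more than 1 actin were handled is not given in the sources used here, so the division of reads between members is uncertain to that extent.

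Some of the members also share a promoter feature that the choice of genes did not use. A CArG box, the sequence bound by serum response factor, was sought on both strands in the 250 bases before each start site in the RefSeq promoter table (GRCm38.p6), which held 4 of the 5 members. An exact box stood before Actc1, Acta1 and Actg1, and only boxes with 1 mismatch in the 6-base core stood before Acta2. Of all 32850 promoters, 482 (1.467%) held an exact box and 2823 (8.593%) held an exact box or one with a single core mismatch. The box nearest each start is given with 10 bases on either side, on the minus strand, with the box in capitals.
Actc1, chr2:114052903-114052932: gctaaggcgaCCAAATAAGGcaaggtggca
Acta1, chr8:123894829-123894858: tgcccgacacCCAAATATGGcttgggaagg
Actg1, chr11:120348566-120348595: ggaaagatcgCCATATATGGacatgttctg
Acta2, chr19:34255388-34255417: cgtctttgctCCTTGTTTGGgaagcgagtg
These boxes began 47 bases before the start of Actc1, 73 before Acta1, 90 before Actg1 and 34 before Acta2, counted from the RefSeq starts. The outermost GENCODE starts differ: by them the boxes of Acta1 and Actg1 lie 97 and 43 bases before the gene, and those of Actc1 and Acta2 lie 626 and 183 bases inside it. A match in letters is no evidence of binding in these cells.

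Of 13824 wells, 3146 held at least 1000 unique molecular identifiers (UMIs, a count of distinct captured transcripts) and were kept as cells. The median was 2217 to 3230 UMIs per well in sham and IR groups and 13120 in MI, whose plates also carry their own protocol label, so that MI and its plate batch cannot be told apart. Mitochondrial transcripts took a median of 10.5% of UMIs in MI, 34.6% in IR at day 1, 49.3% in IR at day 3 and 71.9% to 74% in the other groups, and were left out of all levels below. Day 14 sham plates 2 and 7 matched each other in the same wells (42 and 34 wells in the 2 directions) and were merged to count as 1 in values and tests by plate. Pooled values and well counts hold both copies. Without plate 7 day 14 sham held 207 cardiomyocyte-like wells in place of 232 and 73 endothelial-like wells in place of 81, and its pooled values below moved little. Another 38 wells, 19 of them kept as cells, matched the same well of a deeper plate elsewhere. The most, 18, joined day 14 sham plate 2 to plate 6 of IR at day 3, groups that are compared here. The cell classes were named from marker genes after clustering without the 5 actins: 14 wells were mural-like (vessel-wall), 12 erythrocyte-like, 156 neutrophil-like, 327 fibroblast-like, 415 endothelial-like, 631 macrophage-like and 1135 cardiomyocyte-like, and 456 stayed unnamed. Levels are given as CPM, each gene's UMIs scaled to a fixed total of nuclear UMIs, which for 3′ counts do not rise with transcript length.

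The leading isoform differed between the cell classes. In pooled cardiomyocyte-like wells Actc1 made up 91.2% of the actin UMIs, Acta1 2.84%, Actb 2.81%, Actg1 1.97% and Acta2 1.16%. In macrophage-like wells the order was Actb 72.2%, then Actg1 25.6%, and in neutrophil-like wells it was Actb 71.8%, then Actg1 24.6%. Fibroblast-like wells held Actb at 50.6%, Actg1 at 36.5% and Acta2 at 10.7%, and the 14 mural-like wells were the only class in which Acta2 led, at 47.6%. Actc1 UMIs were also found in wells of other classes. In the endothelial-like class it took 12.9% beside Actb at 51.5% and Actg1 at 31.3%. It took 24.6% in fibroblast-like wells of IR at day 3 and 27.5% in those of IR at day 14, where the 9 cardiomyocyte markers stood at 1378 to 19138 CPM and 4930 to 25133 CPM over plates and their part was not tested. It led at 64.6% in the 12 erythrocyte-like wells, which held 79 actin UMIs. Total actin was 15024 CPM in cardiomyocyte-like, 15975 CPM in macrophage-like and 10382 CPM in endothelial-like wells, all groups pooled. The enteric smooth muscle isoform Actg2 gave 126 UMIs in all cells together, against 410273 UMIs for the 5 members.

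**Figure D1:**
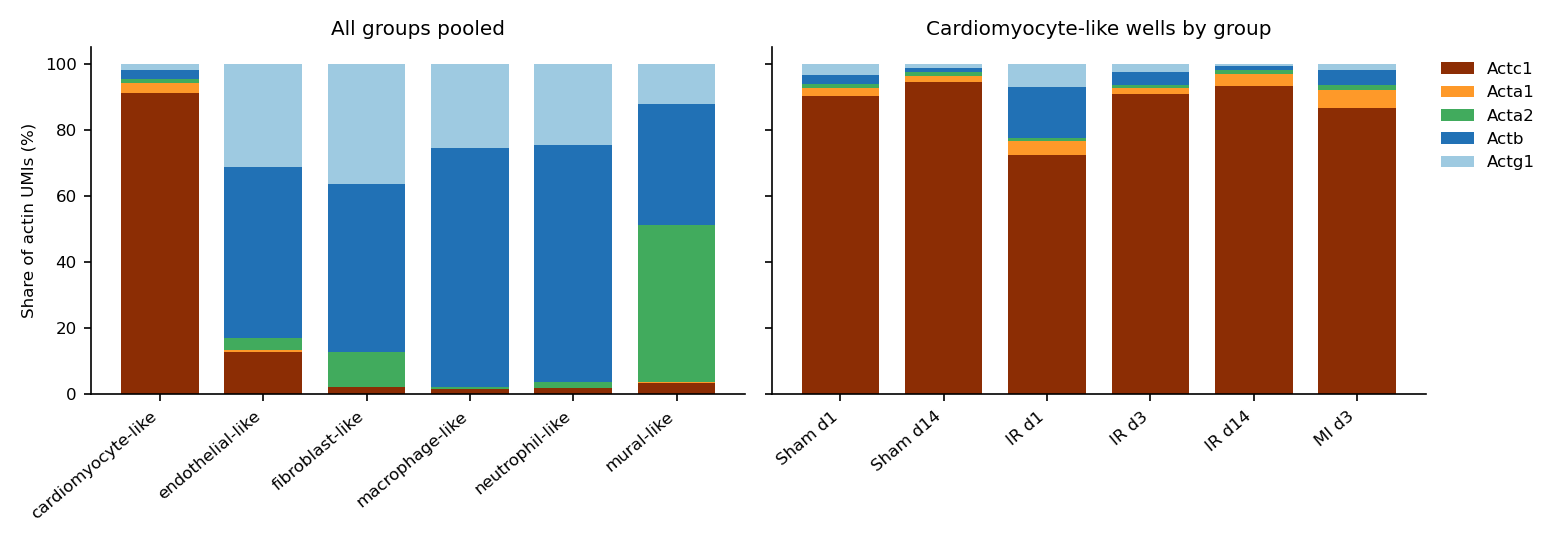
Stacked bars give each isoform's share (%) of the actin UMIs, left for 6 cell classes with all groups pooled and right for cardiomyocyte-like wells in each group (d, day after surgery). Actc1 fills 91.2% of the cardiomyocyte-like bar, Actb leads in endothelial-, fibroblast-, macrophage- and neutrophil-like wells, and the day 1 IR bar holds the smallest Actc1 share, 72.4%.

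**Figure D2:**
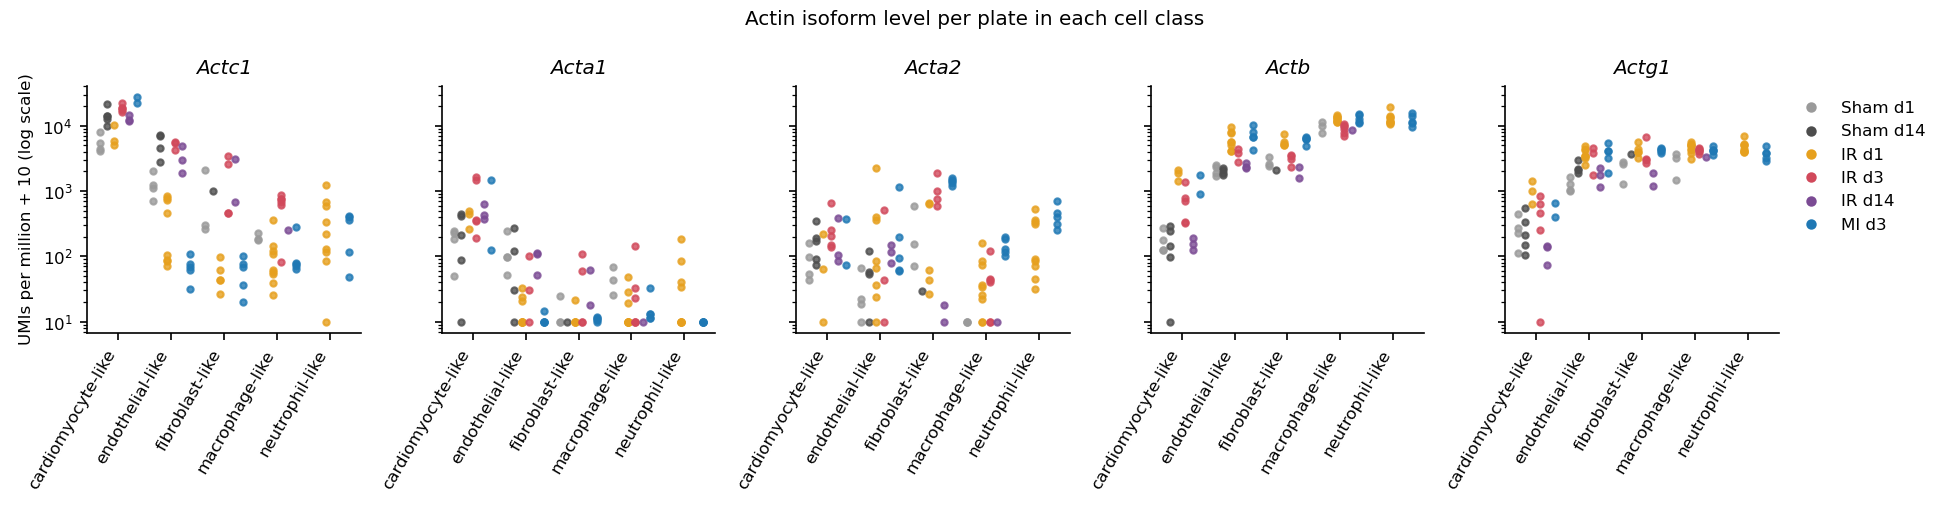
Level of each isoform (CPM on a log axis) in every plate and class with at least 5 wells, coloured by group. Actc1 is highest in cardiomyocyte-like wells, Actb and Actg1 are highest in the non-muscle classes, and Actc1 in endothelial-like wells spreads from 21.5 to 7253 CPM between plates.

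Which other genes followed each actin was read over the 107 units of plate and class with at least 5 wells, among 7307 genes, as a Pearson correlation of log2(CPM + 10). Units of 1 plate share a library and depth, and classes dominate the spread, so these values describe cell makeup and carry no test. Actc1 was most like Tnnt2 (cardiac troponin T, r = 0.947), Pln and Mybpc3, and Acta1 was most like Smpx (a small muscle protein, r = 0.840), Rcan2 and Sh3bgr. Actb was most like Cfl1 (cofilin, which severs actin filaments, r = 0.943), H3f3b and Arpc5. Actg1 was most like Anxa2 (r = 0.911), Arpc1b and Flna (filamin A, which crosslinks filaments). Acta2 was most like Tagln (transgelin, r = 0.633), Tpm2 and Myl9, all of the smooth muscle apparatus. Between members, Actb and Actg1 went together (r = 0.869), as did Acta1 and Actc1 (r = 0.774), and Actb ran opposite to Actc1 (r = -0.754).

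The first comparison set actin levels in cardiomyocyte-like wells of injured hearts against those of sham hearts. Beta-actin, low in sham muscle, was raised after IR at days 1 and 3 and after MI, and lay inside the range of the sham plates at day 14. Gamma-actin passed the test at day 1 of IR by a narrow margin. Skeletal alpha-actin passed the test at day 3 in both injuries but rested on few plates. Cardiac alpha-actin passed no edgeR test as set up for these comparisons, while DESeq2 and edgeR with another scaling called it in IR at day 3, in MI and between the sham days. Clustering on unscaled genes left 2 cardiomyocyte-like wells in MI, so every MI comparison in this class could be run only with scaled genes, a choice made after class sizes were seen.

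Actb in cardiomyocyte-like wells stood at 115, 266, 169 and 115 CPM on the day 1 sham plates. On the day 14 sham plates it stood at 236, 136, 277, 0 and 88.6 CPM. After IR at day 1 it reached 1410, 1846 and 2065 CPM, on the 3 of 9 plates with at least 5 cardiomyocyte-like wells (6, 5 and 12 wells). None of these 3 plates overlapped a sham plate. At day 3 of IR the plates gave 322, 771, 314, 1384 and 698 CPM, and the 2 MI plates with at least 5 cardiomyocyte-like wells gave 899 and 1720 CPM. All 7 values were above the highest of the 9 sham plates, but the 322 CPM of IR plate 3 rests on 2 Actb UMIs and cannot be told from 0, as the 0 CPM of the sham plate (10975 UMIs) cannot be told from a low level. At day 14 of IR the plates were at 146, 114 and 181 CPM, inside the sham range, where the difference from day 14 sham did not pass. By edgeR's quasi-likelihood test with Benjamini-Hochberg adjustment over all genes, Actb rose by 2.83 ± 0.42 on the log2 scale (SE) in IR at day 1 against day 1 sham (adjusted p = 5.4e-07). Against all sham plates it rose by 1.81 ± 0.30 in IR at day 3 (adjusted p = 3.7e-06) and by 2.13 ± 0.39 in MI (adjusted p = 6.9e-06, edgeR). Without copied wells the day 3 rise was 1.82 (edgeR, adjusted p = 2.7e-06). With the replicate number as a block in the fit it was 1.29 and did not pass (adjusted p = 0.19). From day 3 to day 14 of IR it fell by 2.08 ± 0.41 (edgeR, adjusted p = 0.00022), a change that with the block was -1.70 (adjusted p = 0.40).

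Actg1, the other cytoplasmic isoform, moved less. The day 1 sham plates held 101, 430, 215 and 266 CPM and the day 1 IR plates 622, 1412 and 1006 CPM. These groups did not overlap, and edgeR gave a rise of 1.38 ± 0.43 on the log2 scale (adjusted p = 0.023), a call lost without plate 2 or 3 of IR or plate 1 or 3 of sham (adjusted p = 0.063 to 0.12). It was also lost without wells carrying other markers (1.42, adjusted p = 0.053), without the count filter (1.04, adjusted p = 0.23) and with 3 other limits on wells (0.67 to 1.55, adjusted p = 0.096 to 0.32). At day 3 of IR the plates ran from 0 to 824 CPM, across the sham range, with a difference of 0.87 ± 0.31 (edgeR, adjusted p = 0.071), and MI gave 393 and 656 CPM with a difference of 0.41 ± 0.45 (adjusted p = 0.49). At day 14 of IR the level was 131, 62.7 and 135 CPM, which was 1.95 ± 0.41 below IR at day 3 (edgeR, adjusted p = 0.00069) and 1.63 below it without plate 2 of day 14 (adjusted p = 0.056). With the replicate number as a block that change was -0.77 (adjusted p = 0.87). In pooled counts, with no test, Actb was 41.4% of the cytoplasmic pair in day 1 sham muscle, 48.5% in day 14 sham (48.1% without plate 7), 68% in IR at day 1, 60.5% in IR at day 3, 55.9% in IR at day 14 and 69.3% in MI. In the named other wells of the same plates it was 68.5%, 51.2%, 68%, 63.7%, 59.1% and 69.1%.

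Acta1, the isoform of skeletal muscle, stood at 39.5, 175, 231 and 216 CPM on the day 1 sham plates and at 77.4, 199, 435, 0 and 405 CPM on the day 14 sham plates. After IR it stood at 249, 434 and 477 CPM at day 1 and at 628, 361 and 426 CPM at day 14. At day 3 of IR it stood at 1611, 356, 1442, 181 and 342 CPM. In MI it was 1457 CPM on plate 2 and 113 CPM on plate 3. Plates 3 and 5 of IR at day 3 and plate 2 of MI stood far above the rest, and all other plates lay in or just above the sham range. Against all sham plates edgeR gave a rise of 1.16 ± 0.36 on the log2 scale in IR at day 3 (adjusted p = 0.033) and of 1.34 ± 0.46 in MI (adjusted p = 0.016). The first was lost under 10 alternatives. Among these were fits without plate 5 of IR (0.59, adjusted p = 0.43), without plate 3 of IR, or without any of 3 sham plates (plates 1 and 6 of day 14, plate 1 of day 1). The second was lost under 3 alternatives and turned to -1.26 without plate 2 of MI. DESeq2 called neither (adjusted p = 0.14 for both). Neither at day 1 (0.69 ± 0.58, adjusted p = 0.45) nor at day 14 (0.90 ± 0.44, adjusted p = 1.00, edgeR) did the difference from the sham of the same day pass.

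In single wells Acta1 was often at 0, which at these depths cannot be told from a low level. Among cardiomyocyte-like wells with at least 20 sarcomeric actin UMIs, 134 of 246 in IR at day 14 and 131 of 223 in IR at day 3 had no Acta1 UMI. In day 14 sham it was 117 of 158 (105 of 144 without plate 7), and in day 1 sham 63 of 83. The median share of Acta1 in the sarcomeric pair was 0 in these 4 groups, 3.89% in 10 wells of IR at day 1 and 0.33% in 15 wells of MI. The highest single well reached 48.3%, in day 1 sham, 33.7% in MI and 30% in IR at day 14. Summed over the wells of a plate, the share was 5.45% ± 1.83 (SD, n = 3 plates) in IR at day 1 and 3.35% ± 1.97 (n = 4) in day 1 sham. It was 3.51% ± 0.63 (n = 3) in IR at day 14 and 1.46% ± 1.19 (n = 5) in day 14 sham, a difference of 2.05 points that the exact two-sided permutation test over plates put at p = 0.071 (adjusted p = 0.21 over 24 share tests).

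Actc1, the main cardiac isoform, stood at 7994, 4399, 5431 and 4115 CPM in day 1 sham and at 9711, 14192, 21510, 14305 and 12550 CPM in day 14 sham. These plates did not overlap, yet edgeR put the difference of 1.12 ± 0.39 on the log2 scale at an adjusted p of 0.21, in a comparison added after these values were seen. DESeq2 called it (1.19, adjusted p = 4.1e-07), as did edgeR over plates of at least 10 wells (1.24, adjusted p = 0.014). IR at day 1 held 5018, 10155 and 5851 CPM, IR at day 3 16025 to 22226 CPM, IR at day 14 11838 to 14468 CPM and MI 22305 and 27272 CPM. The day 3 IR plates lay above at least 8 of the 9 sham plates, and the MI plates above all 9. Against all sham plates the differences were 0.64 ± 0.31 in IR at day 3 (edgeR, adjusted p = 0.25) and 0.76 ± 0.42 in MI (adjusted p = 0.15). Scaling by relative log expression in place of trimmed means brought both past the threshold (0.79, adjusted p = 0.032, and 1.01, adjusted p = 0.011), as did DESeq2, and turned the day 1 IR difference from -0.33 to 0.37 with no call either way. Acta2 ran from 0 to 644 CPM in cardiomyocyte-like plates and passed no test.

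**Figure D3:**
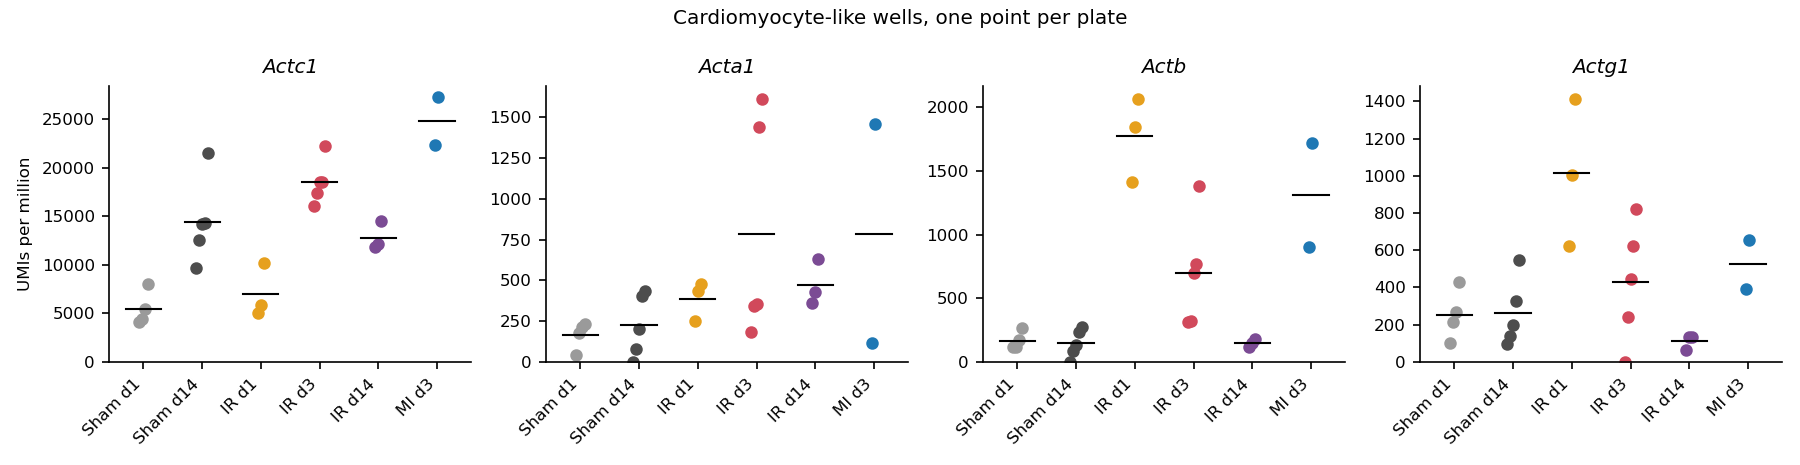
Level (CPM, linear axis, scales differ between panels) of 4 actins in cardiomyocyte-like wells, with a point for each plate of at least 5 such wells and a bar at the group mean. Actb lies at 1410 to 2065 CPM on the 3 plates of IR at day 1 against 0 to 277 CPM on the 9 sham plates, and Acta1 at day 3 and MI splits into 3 plates at 1442 to 1611 CPM and 4 at 113 to 356 CPM.

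Counted over members, 2 of 5 were called in cardiomyocyte-like wells in IR at day 1, where 13% of 4294 genes were. In IR at day 3 against all sham it was 2 of 5 against 6.26% of genes, in MI against all sham 2 of 5 against 36.3%, and from day 3 to day 14 of IR 2 of 5 against 3.59%. In MI the share called is thus near the level of all genes. No member was called in IR at day 14 against day 14 sham (0.21% of genes called, 2 members at an unadjusted p under 0.05), and none in MI against IR at day 3 (22.9% of genes called, 7.15% higher and 15.7% lower, 0 members at an unadjusted p under 0.05). No member was called between the sham days either (0.675% of genes, 1 member at an unadjusted p under 0.05). DESeq2 called 0, 0 and 1 members in these last comparisons. Trimmed-mean scaling left the median of all genes at -0.57 (log2) in IR at day 1 and -0.24 in MI, against 0.08 and 0.04 with relative log expression. With it the share of higher genes among those called went from 29% to 71.1% and from 38.7% to 51.1%, while the rise of Actb was 3.49 and 2.43. The cardiomyocyte-like class itself differed in makeup: 28 of 33 wells in IR at day 1, 154 of 279 in IR at day 3 and all 19 in MI fell in a cluster led by Sprr1a, Nmrk2 and Nppa that held 4 of 231 day 1 sham wells and 2 of 232 day 14 sham wells.

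Summed over lists, markers of other cells were higher in these wells in every injured group than in sham, and their part in the rise of Actb was not tested. Single lists did not all follow the sum. Mural markers in MI stood at 12.7 to 22.6 CPM, against 196 to 377 CPM in day 1 sham and 91.1 to 359 CPM in day 14 sham. The mural list is part of the sum and gave 244 of its 882 UMIs in day 1 sham and 220 of 546 in day 14 sham. The summed markers of the other classes came to 1032 CPM in day 1 sham and 782 CPM in day 14 sham muscle. They came to 2436 CPM in IR at day 1, 3720 CPM in IR at day 3, 1389 CPM in IR at day 14 and 1367 CPM in MI. Pooled Actb was 1769 CPM in IR at day 1, 759 CPM in IR at day 3, 151 CPM in IR at day 14 and 1297 CPM in MI. For each of these marker UMIs, cardiomyocyte-like wells of IR at day 1 held 0.726 Actb UMIs and the named other wells of the same plates 0.636. The ratios were 0.204 and 0.261 in IR at day 3, 0.109 and 0.125 in IR at day 14, and 0.949 and 0.450 in MI. They were 0.158 and 0.276 in day 1 sham and 0.244 and 0.175 in day 14 sham, where plate 7 left out gave 0.249 in muscle wells. In MI, in IR at day 1 and in day 14 sham the ratio in muscle wells was the higher, and in IR at days 3 and 14 and in day 1 sham it was the lower. Fibroblast markers gave the most UMIs of any list in the injured groups, at 498 to 3150 CPM in IR at day 1 (7 of 8 detected, Lum at 0), 555 to 2861 CPM in IR at day 3 (8 of 8) and 633 to 2014 CPM in MI (7 of 8), against 126 to 665 CPM in day 1 sham and 139 to 311 CPM in day 14 sham. Wells with none of the markers numbered 3 of 33 in IR at day 1, 2 of 279 in IR at day 3 and 0 of 19 in MI, too few to compare Actb in them. The limit for wells carrying other markers (at least 3 such UMIs and 20% of the well's own) marked only 19 of the 1135 cardiomyocyte-like wells. Most wells holding some of these markers thus stayed in when the marked wells were left out. Actb was then higher by 3.08 in IR at day 1 and 1.75 in IR at day 3 (edgeR, adjusted p = 6.7e-09 and 5.4e-07), and by 2.24 in MI.

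Genes for non-muscle filament partners were called higher more often than lower in these wells. This list and those that follow were chosen with earlier results of these data known, so their counts are descriptive and no independent support. Of 18 tested genes for non-muscle filament partners, 10 rose and 0 fell in IR at day 1, with a median of 1.98 on the log2 scale against -0.57 for all genes, of which 3.77% rose and 9.25% fell. Among them were Actn1 (alpha-actinin 1, a crosslinker, 2.89 ± 0.55), Lcp1 (the plastin of blood cells, 4.14 ± 0.86) and Msn (moesin, which ties filaments to the membrane, 2.40 ± 0.50). In IR at day 3, 5 of 18 rose, where 4.17% of all genes rose and 2.1% fell. In MI (14.1% and 22.2% of all genes) 10 rose and 2 fell. Pdlim7 (a LIM protein of actin bundles, 4.33 ± 0.38), Zyx (zyxin, of focal adhesions, 2.75 ± 0.58) and Myl12a (a non-muscle myosin light chain, 2.12 ± 0.34) led those that rose, and those that fell were Plec (plectin, -2.85 ± 0.61) and Vcl (vinculin, -3.09 ± 1.10). Of 22 genes for filament turnover, 7 rose in IR at day 1, 7 in IR at day 3 and 10 in MI, against 1, 0 and 1 that fell (Cap2 at day 1 and Gsn, the filament-cutting gelsolin, at -2.67 ± 0.68 in MI). Cfl1 rose in all 3, by 3.06 ± 0.44, 2.22 ± 0.30 and 2.67 ± 0.37. From day 3 to day 14 of IR, 7 of the 22 fell and 0 rose (2.59% and 1% of all genes), with Cfl1 at -2.08 ± 0.39 and Tmsb4x (thymosin beta 4, which holds actin monomers) at -2.34 ± 0.41. Lcp1 and Capg, at 4.55 ± 0.86 in IR at day 3, are known as genes of leukocytes. On the plates of IR at day 1 neutrophil markers stood at 489 to 900 CPM (7 of 7 detected) against 119 to 407 CPM in day 1 sham, and macrophage markers at 109 to 688 CPM against 34.6 to 140 CPM. At day 3 of IR, those of macrophages stood at 166 to 1285 CPM against 0 to 140 CPM on sham plates, while those of neutrophils had a median of 33 CPM against 146 and 57 CPM in sham. The part of these markers in the calls above was not tested.

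Sarcomeric partners were called in both directions. Of 16 thin filament and sarcomere genes, 1 rose and 5 fell in IR at day 1, with a median of -0.97 against -0.57 for all genes, of which 3.77% rose and 9.25% fell. The riser was Xirp2 (an actin-binding protein of the intercalated disc, 3.00 ± 0.44), and among those that fell were Mybpc3 (-2.50 ± 0.46) and Actn2 (-1.59 ± 0.46), which build the thick filament's crossbridge zone and the Z-disc. In IR at day 3 only Cfl2, the muscle cofilin, passed (0.99 ± 0.29), where 4.17% of all genes rose and 2.1% fell. In MI Cfl2 (2.66 ± 0.34), Csrp3 (1.48 ± 0.36) and Myoz2 (1.42 ± 0.35) were among 4 that rose, and Mybpc3, Fhod3 and Actn2 were the 3 that fell, where 14.1% of all genes rose and 22.2% fell. Of 13 genes for the chaperonin that folds actin, none passed in IR at day 1 or day 3 and 3 rose in MI, led by Pfdn1 (2.03 ± 0.42). Of 8 smooth muscle and serum response factor target genes tested, 1 rose and 2 fell in IR at day 1, 1 rose in IR at day 3, and 2 rose and 1 fell in MI. Cnn2 (calponin 2, an actin-binding protein) rose in all 3, by 2.23 ± 0.70, 1.65 ± 0.40 and 1.97 ± 0.56. Smtn (smoothelin) was at -3.06 ± 0.70 in IR at day 1 and -3.03 ± 0.66 in MI, and the others called were Fhl2 in IR at day 1 (-1.94 ± 0.47) and Myl9 in MI (2.38 ± 0.79).

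The non-muscle part of all actin in cardiomyocyte-like wells summed these moves. It was 27.7% ± 4.26 (SD, n = 3 plates) in IR at day 1 against 7.49% ± 4.38 (n = 4) in day 1 sham, with no overlap between plates. The exact permutation test gave p = 0.057, the smallest this design allows, and an adjusted p of 0.21. In IR at day 3 the share was 5.68% ± 3.86 (n = 5) and in MI 6.52% ± 1.94 (n = 2), against 4.86% ± 3.76 (n = 9) in all sham plates. These differences of 0.82 and 1.66 points did not pass (exact permutation p = 0.69 and 0.55), and the sham mean was 7.49% at day 1 and 2.75% at day 14. At day 14 it was 1.87% ± 0.53 (n = 3) in IR and 2.75% ± 1.15 (n = 5) in sham. None of the 24 share tests passed after adjustment.

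**Figure D4:**
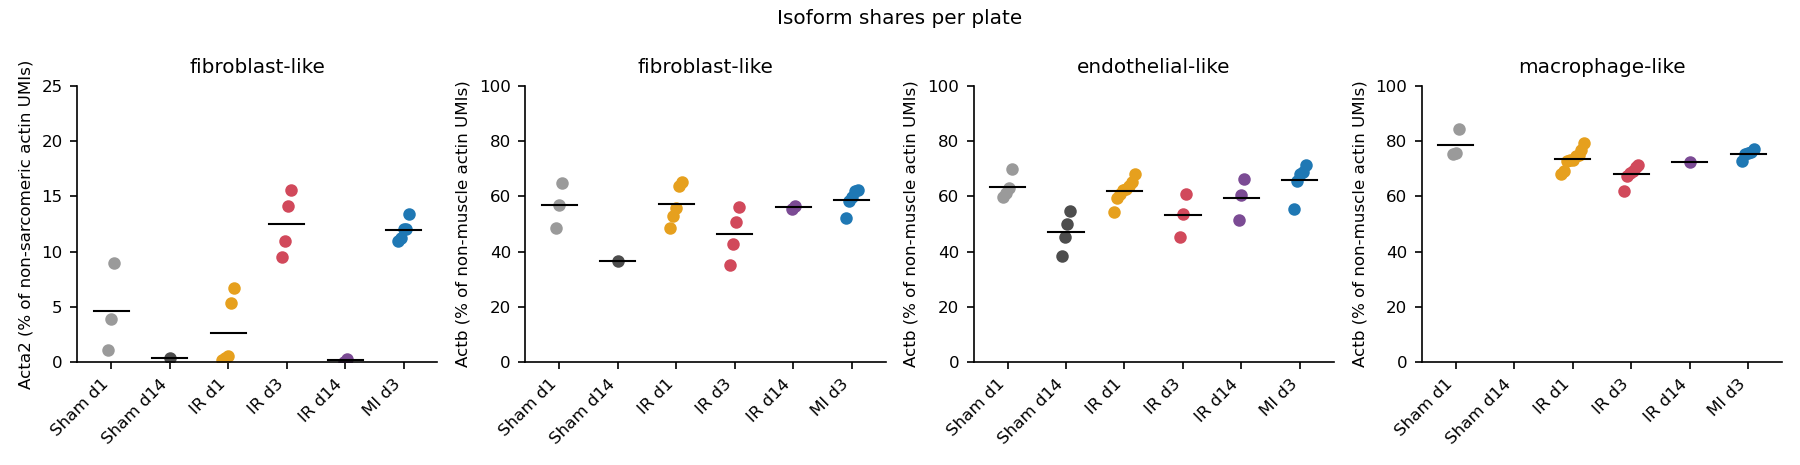
Isoform shares (%) in single plates, with a point for each plate and a bar at the group mean. The panels give the Acta2 share of non-sarcomeric actin in fibroblast-like wells and the Actb share of the cytoplasmic pair in fibroblast-, endothelial- and macrophage-like wells. The Acta2 share lies at 9.48% to 15.5% in IR at day 3 against 0.19% to 6.70% in IR at day 1.

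In endothelial-like wells, the lining cells of vessels, both cytoplasmic actins were higher and both sarcomeric actins lower in IR at day 1 and in MI, while no member passed in IR at day 3 or day 14. The groups drew on different clusters: one led by Igf2, Plvap and Vwf held 41 of 79 wells of IR at day 1 and 49 of 58 of MI, against 4 of 107 in day 1 sham and 2 of 81 in day 14 sham. Actb ran from 1672 to 2527 CPM over the 8 sham plates and from 4083 to 9490 CPM over the 8 plates of IR at day 1, with a median of 5629 CPM. The MI plates held 6699, 7862, 10273, 6801 and 4170 CPM. No plate of IR at day 1 or MI overlapped a sham plate. Actb rose by 1.48 ± 0.29 on the log2 scale in IR at day 1 against day 1 sham (edgeR, adjusted p = 0.00040) and by 1.76 ± 0.24 in MI against all sham (adjusted p = 9.6e-07). Actg1 rose by 1.52 ± 0.29 (adjusted p = 0.00035) and 1.16 ± 0.25 (adjusted p = 0.00038), from 983 to 1601 CPM in day 1 sham to 2450 to 4892 CPM in IR at day 1. In MI Actg1 ran from 1873 to 5372 CPM, which overlapped the sham plates at 983 to 3019 CPM. Both held under every alternative that could be run for these plates. At day 3 of IR, where 3 plates had enough endothelial-like wells, Actb was at 4333, 3794 and 2739 CPM and the differences of 0.59 ± 0.29 and 0.83 ± 0.29 did not pass (edgeR, adjusted p = 0.33 and 0.14). At day 14 they were 0.37 ± 0.34 and -0.26 ± 0.34. The muscle isoforms did not pass at either time, with Actc1 at 0.76 ± 0.52 and -0.64 ± 0.61, Acta1 at -1.03 ± 0.81 and -0.29 ± 0.79, and Acta2 at 2.54 ± 1.31 and 0.93 ± 1.49.

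All 5 members were called in IR at day 1 (17.6% of 3650 genes) and all 5 in MI (36% of genes), although Actc1 in IR at day 1 was lost under 4 alternatives: without plate 2 of day 1 sham (-1.46, edgeR, adjusted p = 0.070), in wells of at least 2000 UMIs (-1.42, adjusted p = 0.058), with unscaled clustering (adjusted p = 0.066) and with the replicate number as a block (adjusted p = 0.060). None was called in IR at day 3 (1.59% of genes called, 1.23% higher and 0.356% lower, 1 member at an unadjusted p under 0.05, 1 by DESeq2) or at day 14 (0 genes called of 3650, 177 at an unadjusted p under 0.05, and 0 by DESeq2). Of 21 non-muscle partners, 15 rose and 1 fell in IR at day 1, where 8.41% of all genes rose and 9.21% fell. In MI 17 rose and 0 fell (19.5% and 16.5% of all genes). The medians were 1.21 and 1.13 (0.04 and 0.09 for all genes), led by Actn1 (2.23 ± 0.35 and 2.44 ± 0.31) and with Flna (filamin A) at 1.96 ± 0.37 and 1.87 ± 0.31. Pfn1, the profilin that feeds monomers to growing filaments, rose by 1.65 ± 0.31 and 2.43 ± 0.27. The chaperonin subunits Cct3 and Cct6a also rose, by 1.33 ± 0.26 and 1.40 ± 0.30 in MI.

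The sarcomeric actins in this class were accompanied by other muscle transcripts. Actc1 was at 702 to 7253 CPM on sham plates and at 21.5 to 99.9 CPM on MI plates, a fall of 5.68 ± 0.63 on the log2 scale (edgeR, adjusted p = 1.8e-08), and 11 of 13 thin filament genes tested fell there too. Acta1 was called lower with few counts, at 0 to 22.9 CPM on plates of IR at day 1 (5 UMIs in all) and 0 to 4.47 CPM in MI (3 UMIs), against 0 to 265 CPM on sham plates. The 9 cardiomyocyte markers together gave 12049 to 40741 CPM in endothelial-like sham plates, 570 to 12276 CPM in IR at day 1 and 250 to 540 CPM in MI. Of 415 endothelial-like wells, 344 passed the limit for another class's markers, so no comparison without them could be made. Fibroblast markers stood at 887 to 3921 CPM in MI and 47.5 to 1014 CPM in IR at day 1, against 256 to 726 CPM on sham plates (8 of 8 detected in each). Neutrophil markers stood at 47.5 to 2872 CPM in IR at day 1 and 14.3 to 545 CPM in MI, against 112 to 232 CPM on sham plates. The part of these other-cell markers in the rise of Actb and Actg1 was not tested. The ratio of Actc1 to Tnnt2 UMIs was near that of the cardiomyocyte-like wells of the same group in sham at day 1 (0.492 in endothelial-like and 0.482 in cardiomyocyte-like wells), IR at day 1 (0.778 and 0.855), IR at day 3 (1.20 and 1.40) and IR at day 14 (1.06 and 1.07). It was further apart in day 14 sham (1.40 and 1.04, or 1.39 and 1.02 without plate 7), and in MI it was 0.743 against 2.16.

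**Figure D5:**
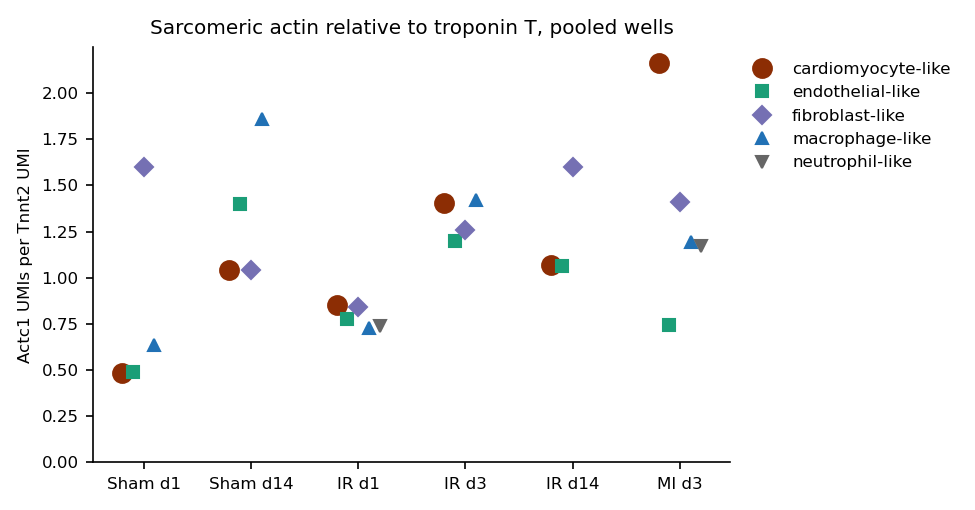
UMIs of Actc1 for each UMI of Tnnt2 in pooled wells of each group, by class. In IR at day 1 the classes lie between 0.727 and 0.855 and in MI the cardiomyocyte-like wells stand at 2.16 against 0.743 to 1.41 elsewhere.

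Acta2 in endothelial-like wells turned on single wells. It was called higher in IR at day 1 (4.43 ± 1.21) and in MI (3.27 ± 0.94) by edgeR (adjusted p = 0.0096 and 0.0064). On plate 9 of IR at day 1, however, 483 of 484 Acta2 UMIs lay in 1 well, and on plate 4 of MI 742 of 772 lay in 1 well. The mural markers were also highest on these plates of their groups, at 2184 and 1233 CPM. Without plate 9 the difference was 2.91 (adjusted p = 0.056), and without plate 4 it was 1.47 (adjusted p = 0.25). Single wells also held 72 of 72 Acta2 UMIs on plate 7 of IR at day 1 and 28 of 29 on plate 8. Over all alternatives the IR at day 1 difference ran down to 1.25 and the adjusted p up to 0.47. Acta2 in the 14 mural-like wells themselves was 7187 CPM, against 401 CPM in endothelial-like and 1178 CPM in fibroblast-like wells.

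In fibroblast-like wells, the cells that lay down scar, the comparison ran between the injuries and days, since sham hearts gave few of them. Acta2 stood at 653, 33.4, 50.8, 16.6 and 632 CPM on the plates of IR at day 1. At day 3 of IR it was at 571, 995, 1889 and 757 CPM. In MI it was at 1170, 1600, 1488, 1407 and 1317 CPM. Day 1 split into 3 plates at 16.6 to 50.8 CPM and 2 plates that overlapped day 3, while the MI plates lay close together. edgeR gave a rise of 1.97 ± 0.66 from day 1 to day 3 of IR (adjusted p = 0.033), a call that was lost without any of 6 plates (plates 5, 6 and 7 of day 1 and 4, 5 and 7 of day 3), and without wells carrying other markers (1.91, adjusted p = 0.098), and was 0.33 (adjusted p = 0.68) over plates of at least 10 wells. As a share of the non-sarcomeric actins, Acta2 was 12.5% ± 2.78 (n = 4 plates) at day 3 and 2.61% ± 3.14 (n = 5) at day 1, without overlap (exact permutation p = 0.016, the smallest possible, adjusted p = 0.13). MI, at 11.9% ± 0.93 (n = 5), differed from IR at day 3 by -0.58 points (exact permutation p = 0.67). In level, edgeR put MI 0.42 ± 0.63 above IR at day 3 (adjusted p = 0.74), and 0.81 above it over plates of at least 10 wells, a difference that passed (adjusted p = 0.046) and leaves out plate 5 of IR. In day 1 sham the level was 59.9, 580 and 145 CPM, and in IR at day 14 it was 0 and 7.99 CPM, 1 UMI in 20 wells.

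Actb in the same wells ran from 4988 to 7343 CPM at day 1, 2323 to 3604 CPM at day 3 of IR and 4804 to 6701 CPM in MI. The day 3 IR plates lay below all others of these 3 groups. Actb fell by 0.75 ± 0.27 from day 1 to day 3 (edgeR, adjusted p = 0.042) and was 0.92 ± 0.27 higher in MI than in IR at day 3 (adjusted p = 0.027). The first call was lost under 9 alternatives. Among these were fits without wells carrying other markers (-0.53, adjusted p = 0.24) and without 3 single plates (plate 9 of day 1, plates 3 and 5 of day 3). The second was lost under 2, of which 1 left out plate 2 of MI (0.89, adjusted p = 0.059). Actg1 did not pass in either (-0.07 ± 0.28 and 0.14 ± 0.28). Actc1 rose by 5.45 ± 0.78 from day 1 to day 3 and fell by 5.29 ± 0.71 from there to MI, beside cardiomyocyte markers at 378 to 845, 1378 to 19138 and 366 to 491 CPM in these groups. Acta1 moved with it, by 4.95 ± 1.19 and -5.53 ± 0.82. These sizes are uncertain, as Acta1 gave 1 UMI in IR at day 1 and 6 UMIs in MI, against 36 UMIs in IR at day 3. In all, 4 of 5 members were called from day 1 to day 3 (23.1% of 6606 genes) and 3 of 5 between MI and IR at day 3 (11%). Of the 10 smooth muscle genes tested, 2 rose from day 1 to day 3 (12.2% of all genes rose, 11% fell), and between MI and IR (4.48% higher, 6.54% lower) Tpm2 alone was higher (0.97 ± 0.31) while Des and Fhl2 were lower. Of 13 chaperonin genes, 9 fell from day 1 to day 3, Cct3 by 1.25 ± 0.27. Most wells of IR at day 1 (45 of 55) and MI (135 of 136) fell in a cluster led by Timp1, Cxcl5 and Tnc, which held 28 of 76 wells of IR at day 3.

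Macrophage-like wells, the phagocytes of the heart, held Actb at 11529 CPM in the pool, near the 12496 CPM of neutrophil-like wells. Over 9 plates of IR at day 1 Actb ran from 11420 to 14318 CPM with a median of 12701 CPM. Over 6 plates at day 3 it ran from 6926 to 10541 CPM with a median of 9486 CPM. In MI it was 11415, 11044, 14601, 12650 and 14881 CPM. Day 3 of IR did not overlap either of the others. It lay 0.52 ± 0.16 below day 1 (edgeR, adjusted p = 0.018), and MI lay 0.57 ± 0.18 above it (adjusted p = 0.047). Actg1 differed by -0.14 ± 0.18 and 0.05 ± 0.21, Acta2 by 0.85 ± 0.50 and 1.04 ± 0.39, and Acta1 by 1.77 ± 1.00 and -1.76 ± 0.78, none past the threshold. Of the cytoplasmic pair, Actb made up 73.6% ± 3.49 (n = 9 plates) at day 1, 68.1% ± 3.38 (n = 6) at day 3 and 75.4% ± 1.63 (n = 5) in MI. The difference of 7.30 points between MI and IR at day 3 had an exact permutation p of 0.0043, the smallest possible, and an adjusted p of 0.10.

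In these wells 2 of 5 members were called in each comparison (26.8% and 9.28% of 5097 genes), the other being Actc1, which rose by 2.87 ± 0.44 and fell by 2.64 ± 0.45 beside cardiomyocyte markers at 315 to 1661, 846 to 3642 and 329 to 698 CPM. Of 19 non-muscle partners, 9 fell from day 1 to day 3 (14.6% of all genes rose, 12.3% fell), Myh9 (the non-muscle myosin heavy chain) by 1.57, and 3 rose in MI over IR (4.89% and 4.39%), Myh9 by 1.66. With wells carrying other markers left out the Actb differences were -0.33 (edgeR, adjusted p = 0.25) and 0.34 (adjusted p = 0.33). In all, the Actb call from day 1 to day 3 was lost under 3 alternatives and that between MI and IR under 14. The latter included leaving out any of 8 single plates (plates 1, 4 and 7 of IR at day 3 and all 5 of MI). The groups drew on different clusters: one led by Gpnmb, Ifi202b and Ms4a7 held 136 of 195 wells of IR at day 3, 4 of 114 of IR at day 1 and 5 of 281 of MI. Neutrophil-like wells, nearly all from IR at day 1 and MI, held Actb at 10645 to 19020 and 9413 to 15649 CPM, which overlapped.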

How the data were processed

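Single cardiac cells were processed with SORT-seq, and the authors deposited a table of UMI counts for each of 36 plates. Per the labels, reads were mapped with BWA to GRCm38 (mm10), and the counter, the treatment of reads fitting several genes and the actin annotation are not given in the sources used here. The deposited counts were whole numbers from 0 to 4096, the number of 6-base UMIs, and were used as deposited. Cells are wells of at least 1000 nuclear UMIs. They were clustered without the 5 actins (scanpy 1.11.5, leidenalg 0.10.2), and clusters were named from marker lists. Scaling genes before clustering was chosen after class sizes were seen, and MI cardiomyocyte-like wells (19, or 2 unscaled) could be compared only with it. No doublet caller was run, and wells carrying another class's markers were left out as an alternative.

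Counts were summed by plate and class (at least 5 wells) and tested with edgeR 4.0.16 (quasi-likelihood, trimmed-mean scaling, filtering by expression), a single fit over all groups of a class, with adjustment over all genes at 0.05. Cells are not replicates. Isoform shares (at least 20 UMIs below the line) were compared by exact two-sided permutation over plates, with Benjamini-Hochberg adjustment over 24 tests. On simulated counts, the fit for cardiomyocyte-like wells found 97.6% of changes of 2 log2 units and 50% of changes of 1 unit in IR at day 3 against sham, and 77.2% and 13.2% in MI against sham (2876 and 2894 genes). The simulation drew all groups from a shared mean with few changed genes. In the data 36.3% of 4294 genes were called in MI, so these rates may not hold there. Alternatives covered scaling, DESeq2 1.42.0, filters on genes, wells and plates, copied wells, UMI collisions, a block on replicate number and each plate left out. The members and gene lists were chosen with earlier results of these data known. All 5 members were tested in every comparison. Genes of a list were named only from the up to 3 in each direction with the lowest adjusted p in a comparison described, and not all of these are printed. For each member the text names the 3 genes of highest correlation. Replicate numbers carry no stated meaning, and same-numbered plates did not deviate together (median correlation of deviations -0.012 to 0.0012 over 4 classes). Promoter sequence came from RefSeq, gene positions and transcripts from GENCODE. Counting error alone limits single plates: below about 3 UMIs a level cannot be told from 0.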

Additional observations from a re-analysis of the deposited data

Results flagged for a closer look

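In 58 groups of 4 to 10 plates, 5 plates stood apart from the rest of their group, where chance alone would mark about 1 group in 20. Acta2 in endothelial-like wells stood at 2206 CPM on plate 9 of IR at day 1, where the other plates lay between 0 and 397 CPM. It stood at 1151 CPM on plate 4 of MI, where the others lay between 49.9 and 190 CPM. Both values came almost whole from 1 well each.

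In fibroblast-like wells Actb stood at 7343 CPM on plate 9 of IR at day 1, above the other plates at 4988 to 5592 CPM, and at 4804 CPM on plate 1 of MI, below the others at 6183 to 6701 CPM. Actg1 stood at 6662 CPM on plate 5 of IR at day 3, which rests on 5 wells, against 2654 to 3131 CPM on the other plates.

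Wells that no marker list named were used in no comparison. In MI these 176 wells held Actb at 10407 CPM in the pool, against 969 CPM in day 1 sham and 168 CPM in day 14 sham. Their median depth in MI was 1431 UMIs. What these wells are was not tested.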

How the results depend on the processing

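Of 761 values of single actins under settings other than leaving out a plate, 648 kept their direction and side of the threshold, 41 lost a call and 19 gained one. Another 53 changed sign, none of them called before or after. Correcting for UMI collisions changed no count of called members by more than 1.5 times. MI gave 19 cardiomyocyte-like wells and 2 usable plates. With clustering on unscaled genes it gave 2 such wells (and IR at day 1 60 in place of 33), so no MI comparison of cardiomyocyte-like wells could be run there. The cause of a changed call was not tested.

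The number of members called changed by more than 1.5 times as follows. In cardiomyocyte-like wells, MI against sham went from 2 to 1 in wells of at least 2000 UMIs. IR at day 3 against sham went from 2 to 4 with relative log expression scaling and to 1 with plates of at least 1 well, with wells of at least 2000 UMIs or with clustering on unscaled genes. IR at day 1 went from 2 to 1 without a filter on low counts, with plates of at least 10 or at least 1 well, with wells of at least 2000 UMIs and without wells carrying other markers. The sham days went from 0 to 1 with relative log expression scaling, DESeq2 and plates of at least 10 wells. Endothelial-like wells of IR at day 3 went from 0 to 1 without the count filter, with DESeq2 and with plates of at least 10 wells, and to 2 with clustering on unscaled genes. In fibroblast-like wells, MI against IR went from 3 to 1 with plates of at least 1 well, and IR at day 3 against day 1 went from 4 to 0 with plates of at least 10 wells, to 2 with plates of at least 1 well, wells of at least 2000 UMIs or unscaled clustering, and to 1 without wells carrying other markers. In macrophage-like wells, IR at day 3 against day 1 went from 2 to 1 with plates of at least 1 well and without wells carrying other markers. There MI against IR went from 2 to 4 without the count filter and to 1 with relative log expression scaling, plates of at least 1 well, wells of at least 2000 UMIs, no copied wells or no wells carrying other markers.

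With the replicate number as a block, members called went from 2 to 0 in cardiomyocyte-like wells for IR at day 3 against sham (Actb 1.29, edgeR, adjusted p = 0.19, and Acta1 1.43, adjusted p = 0.085) and for day 14 against day 3 (Actb -1.70, adjusted p = 0.40, and Actg1 -0.77, adjusted p = 0.87). They went from 5 to 3 in endothelial-like wells of IR at day 1, and from 2 to 1 in both macrophage comparisons. Over all genes, the block moved calls in cardiomyocyte-like wells from 269 to 46 for IR at day 3 against sham, from 154 to 7 for day 14 against day 3, from 982 to 283 for MI against IR, from 9 to 3 for day 14 against sham and from 29 to 14 between sham days. It moved calls from 643 to 301 in endothelial-like wells of IR at day 1, and from 1368 to 750 and 473 to 179 in macrophage-like wells. The numbers mark no shared animal or day in the labels, and no such fit could be made for fibroblast-like wells.

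Share differences turned sign only where none was called. The Acta1 share between MI and IR at day 3 (-0.52 points) became 2.33 as a mean of single wells, 0.22 in wells of at least 2000 UMIs, 3.55 with plates of at least 1 well and 2.34 without wells carrying other markers. Between day 14 and day 3 (-0.28 points) it became 0.026, 0.50, 0.46, 0.35 and 0.46 for means of single wells, at least 2000 UMIs, at least 10 wells, at least 1 well and unscaled clustering. The non-muscle share became -0.043 for IR at day 3 against sham with unscaled clustering and -0.14 for MI against IR without wells carrying other markers. The Acta2 share between MI and IR became 1.11, 1.70, 0.43, 0.33 and 0.62 for means of single wells, at least 2000 UMIs, at least 10 wells, at least 1 well and no wells carrying other markers. From day 1 to day 3 of IR it passed with plates of at least 1 well (9.43 points, adjusted p = 0.024, exact permutation). The Actb share in endothelial-like wells became 3.02 as a mean of single wells and 2.46 with unscaled clustering at day 3, and 0.94 with plates of at least 10 wells at day 1.

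With each plate left out in turn, members called ran from 1 to 2 in cardiomyocyte-like wells for MI against sham, IR at day 1 against sham and day 14 against day 3, and from 1 to 3 for IR at day 3 against sham. They ran from 3 to 5 in endothelial-like wells of MI and of IR at day 1, from 2 to 3 (MI against IR) and 2 to 4 (day 3 against day 1) in fibroblast-like wells, and from 1 to 2 in macrophage-like wells for MI against IR. Acta1 in MI ran from -1.26 to 2.68 (log2), and its share from -1.88 to 3.83 points against sham and -3.38 to 2.34 against IR at day 3, and from -0.98 to 0.57 for day 14 against day 3. The non-muscle share ran from -0.51 to 1.92 (IR at day 3 against sham) and -0.54 to 2.21 (MI against IR), and the Acta2 share from -1.59 to 0.43 (MI against IR). The Actb share ran from -5.86 to 1.93 at day 3 and -2.63 to 0.75 at day 1 in endothelial-like wells, and from -6.22 to -4.29 in macrophage-like wells from day 1 to day 3, where it passed without 1 plate. No comparison of endothelial-like wells without other markers could be made.

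Calls over all genes moved by more than 1.5 times elsewhere too. In cardiomyocyte-like wells, IR at day 3 against sham went from 269 to 404, 119 and 160 with plates of at least 10 wells, of at least 1 well and unscaled clustering. IR at day 1 went from 559 to 244, 170 and 261 with plates of at least 10 wells, wells of at least 2000 UMIs and no wells carrying other markers. Day 14 against day 3 went from 154 to 70 with plates of at least 1 well. Day 14 against sham went from 9 to 1 with DESeq2 or plates of at least 1 well, and to 15, 19 and 14 with no count filter, no wells carrying other markers and unscaled clustering. The sham days went from 29 to 44 with at least 10 wells and 50 without wells carrying other markers. Without the count filter, endothelial-like calls went from 1315 to 2055 (MI), 58 to 141 (day 3) and 0 to 7 (day 14), fibroblast-like from 728 to 1197 (MI against IR) and macrophage-like from 1368 to 2058 and 473 to 1038. Unscaled clustering took endothelial-like wells at day 3 from 58 to 506. In fibroblast-like wells, plates of at least 10 and at least 1 well gave 1661 and 246 in place of 728, and 266 and 757 in place of 1529. Leaving out wells carrying other markers gave 906 in place of 1529 there, and 529 and 262 in place of 1368 and 473 in macrophage-like wells.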
